A study of Mus musculus with 27 samples.

Results

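The Polycomb complex subunits described here are 10 genes that were listed by name, Ezh2, Ezh1, Eed, Suz12, Rbbp4, Rbbp7, Jarid2, Rnf2, Ring1 and Kdm2b, among 25209 genes measured. All 10 were found in each of the 8 deposited tables. RNA was sequenced (mRNA-seq) from 27 libraries of V6.5 mouse embryonic stem cells (mESCs), an established line, that were either wild-type (WT) or carried a knockout (KO) of Zfp512b, the mouse gene for the zinc finger protein ZNF512B. Naïve cells grew in LIF with 1 µM of the MEK inhibitor PD0325901 and 3 µM of the GSK3 inhibitor CHIR99021 (day 0), primed cells were taken after 2 days in serum with LIF, neural progenitor cells (NPCs) at day 10 after embryoid bodies had received 5 µM retinoic acid, and cardiomyocytes (CMs) at day 7.5 of an embryoid body protocol with vitamin C at 50 µg/ml. Each stage held WT cells and the KO lines KO4 and KO8, with 3 libraries per group for naïve cells and 2 per group for the other stages.

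KO4 and KO8 are each 1 homozygous clone in which a transcription terminator, with genes for mCherry or puromycin resistance before it, was inserted into Zfp512b, and WT cells did not pass through this editing and selection. Of the KO clones made, these were chosen for having the least increase in proliferation. A difference that only 1 clone shows therefore cannot be told apart from a property of that clone. The labels do not say whether libraries of a group came from separate cultures, so p-values measure only the spread between these libraries, which may be technical. All cells of a dish or of pooled embryoid bodies were lysed together, and fewer cells of a type cannot be told apart from less RNA per cell.

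Polycomb group proteins keep developmental genes silent by modifying histones. Polycomb repressive complex 2 (PRC2) methylates lysine 27 of histone H3 through its catalytic subunit EZH2 or the paralogue EZH1, which work with EED, SUZ12 and the histone chaperones RBBP4 and RBBP7, while JARID2 is an accessory subunit that helps to recruit the complex. PRC1 ubiquitinates histone H2A through the E3 ligases RNF2 (RING1B) and RING1 (RING1A), and KDM2B brings one form of PRC1 to unmethylated CpG islands. In ESCs this system holds lineage genes in a silent state that can be released upon differentiation, and the make-up of both complexes is known to change as cells leave pluripotency.

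The promoters of the paralogues Ezh2 and Ezh1 are shown because, as described below, these genes lay on opposite sides in CMs of the knockout clones. Both sequences cover 250 bases before and 50 bases after the annotated start, come from RefSeq on GRCm38.p6 and are written 5′ to 3′ on the strand of the gene, with capitals for matches to an E2F motif. That of Ezh2 is chr6:47594981-47595280 and that of Ezh1 is chr11:101226414-101226713, both on the minus strand.
Ezh2: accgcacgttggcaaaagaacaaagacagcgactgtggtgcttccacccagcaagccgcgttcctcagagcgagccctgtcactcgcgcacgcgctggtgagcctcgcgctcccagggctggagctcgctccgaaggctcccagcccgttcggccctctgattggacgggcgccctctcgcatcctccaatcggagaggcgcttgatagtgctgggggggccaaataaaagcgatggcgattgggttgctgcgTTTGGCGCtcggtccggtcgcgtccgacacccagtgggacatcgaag
Ezh1: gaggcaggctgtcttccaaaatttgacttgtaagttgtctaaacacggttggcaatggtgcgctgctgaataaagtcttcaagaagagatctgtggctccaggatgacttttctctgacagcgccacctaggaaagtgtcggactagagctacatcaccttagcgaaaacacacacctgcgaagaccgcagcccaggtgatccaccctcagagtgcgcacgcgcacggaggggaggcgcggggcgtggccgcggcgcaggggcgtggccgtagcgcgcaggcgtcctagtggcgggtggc

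The letters searched for E2F, a family of cell cycle transcription factors, were TTTCCCGC, TTTCGCGC, TTTGCCGC and TTTGGCGC on both strands. Of all 32851 RefSeq promoters of this length, 2.26% held one of them. Among the members, Ezh2 held 1 match, 3 bases downstream of the start, and Suz12 held 1 match, and the windows of the other members held none. The CCAAT box, searched as CCAAT on both strands, was found in 37.4% of all promoters, 3 times in the Ezh2 window and not in that of Ezh1. Both windows were rich in GC, with 64.3% and 31 CpG dinucleotides for Ezh2 and 59.3% and 23 CpG dinucleotides for Ezh1, against medians of 52.7% and 7 over all promoters. A match is a description of the sequence and not a binding site.

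On mm9, the build of the tables, the genes of PRC2 lie at chr6:47480273-47545340 (Ezh2, minus strand), chr11:101052429-101087777 (Ezh1, minus), chr7:97103166-97129493 (Eed, minus), chr11:79806608-79847625 (Suz12, plus), chr4:128984344-129012614 (Rbbp4, minus), chrX:159198334-159217024 (Rbbp7, plus) and chr13:44824843-45017012 (Jarid2, plus). Those of PRC1 lie at chr1:153316536-153347953 (Rnf2, minus), chr17:34157737-34161625 (Ring1, minus) and chr5:123320677-123465089 (Kdm2b, minus). All are annotated as protein-coding.

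Each deposited table compares 1 clone with WT at 1 stage and gives, for every gene, the mean of normalized counts over all libraries of that comparison, so each stage has a KO4 table (WT and KO4 libraries) and a KO8 table (WT and KO8 libraries) that share the WT libraries. The means of a table were scaled to a sum of 1000000 and are given in counts on that scale (CPM). A mean pooled over WT and KO libraries has no replicate spread, and levels between stages are therefore given without a test. Depth, estimated from the value of 1 read and the summed means of a table, was 34.2 to 39.7 M reads per naïve library. It was 15.1 to 19.5 M reads per library of the other stages. This estimate covers only reads assigned to genes and follows the normalization of the table. Where a gene's mean was at most 1000 in both tables of a stage with 2 libraries per group, the whole reads of each library could be solved from the digits of both means, with 1 solution for 99.9% of such genes in primed cells, 99.7% in NPCs and 99.5% in CMs. Of the members, this held for Ezh1 and Ring1 at these 3 stages. Libraries are called A and B within a group, and these letters do not stand for the replicate numbers of the labels.

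The knocked-out gene was checked first. Primed cells held 977 and 979 Zfp512b reads in WT, 188 and 213 in KO4 and 183 and 135 in KO8, and CMs held 1199 and 1076 in WT, 179 and 199 in KO4 and 165 and 169 in KO8. Zfp512b RNA was thus 4.55-fold lower in KO4 and 5.55-fold lower in KO8 than in WT in primed cells, and 5.39-fold and 6.56-fold lower in CMs. The gene was not tested in NPCs, nor in naïve cells, where no reads per library were recovered. Stage labels were compared with marker genes. Summed naïve markers went from 3677 CPM in naïve cells to 1578 in primed cells and 182 in NPCs, while CM markers stood at 1533 CPM in CMs and at 6.47 in NPCs. The NPC list was less specific, with 406 CPM in NPCs, 370 in CMs and 182 in naïve cells.

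Within the PRC2 core, transcripts of the catalytic subunit Ezh2 lay within a narrow range across the stages on the CPM scale. Those of its partner Eed were far lower in NPCs and CMs than in both pluripotent stages. Ezh2 stood at 214 (KO4 table) and 219 (KO8 table) CPM in naïve cells, 238 in both tables of primed cells, 169 and 183 once differentiated to NPCs, and 203 and 158 in CMs. Its highest and lowest stage thus differed by 1.35-fold. Ezh1, the paralogue that is mostly associated with non-dividing cells, stood at 49.7 CPM in both tables of naïve cells, 39.2 and 43.8 once primed, 38.1 and 34.9 as NPCs and, with a wider gap between the tables, 22.6 and 31.4 as CMs.

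Eed, which binds trimethylated H3K27 and stimulates the enzyme, stood at 253 and 246 CPM in naïve cells and at 301 and 286 in primed cells, and then at 65.2 and 69.4 in NPCs and 86.0 and 67.98 in CMs. Its level spanned 4.36-fold over the stages, the widest range of the 10 members. Suz12, the scaffold on which PRC2 is assembled, was highest in naïve cells, with 477 and 489 CPM, and stood at 331 in both tables of primed cells, 209 and 215 as NPCs and 186 and 175 as CMs. The chaperone genes, whose products also serve other chromatin complexes, were flatter. Rbbp4 lay between 443 and 680 CPM over the 8 tables, and Rbbp7 between 340 and 576, with its extremes in the KO8 tables of naïve cells and CMs.

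Jarid2 showed a peak in primed cells. It stood at 293 and 299 CPM in naïve cells, 872 and 843 once primed, 303 and 305 as NPCs, and 227 and 194 as CMs. The level in primed cells was 4.07-fold that in CMs, where it was lowest.

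The PRC1 ligase genes had different profiles. Rnf2 was the flattest member, with levels from 154 to 191 CPM in all 8 tables. Ring1 was at 10.2 and 10.3 CPM in naïve cells and 8.84 and 9.41 in primed cells, and reached 34.7 and 33.5 in NPCs and 17.0 and 15.1 in CMs. Kdm2b, the CpG island binding subunit, was highest in primed cells with 216 and 209 CPM, and lay between 125 and 175 in all other tables.

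**Figure D1:**
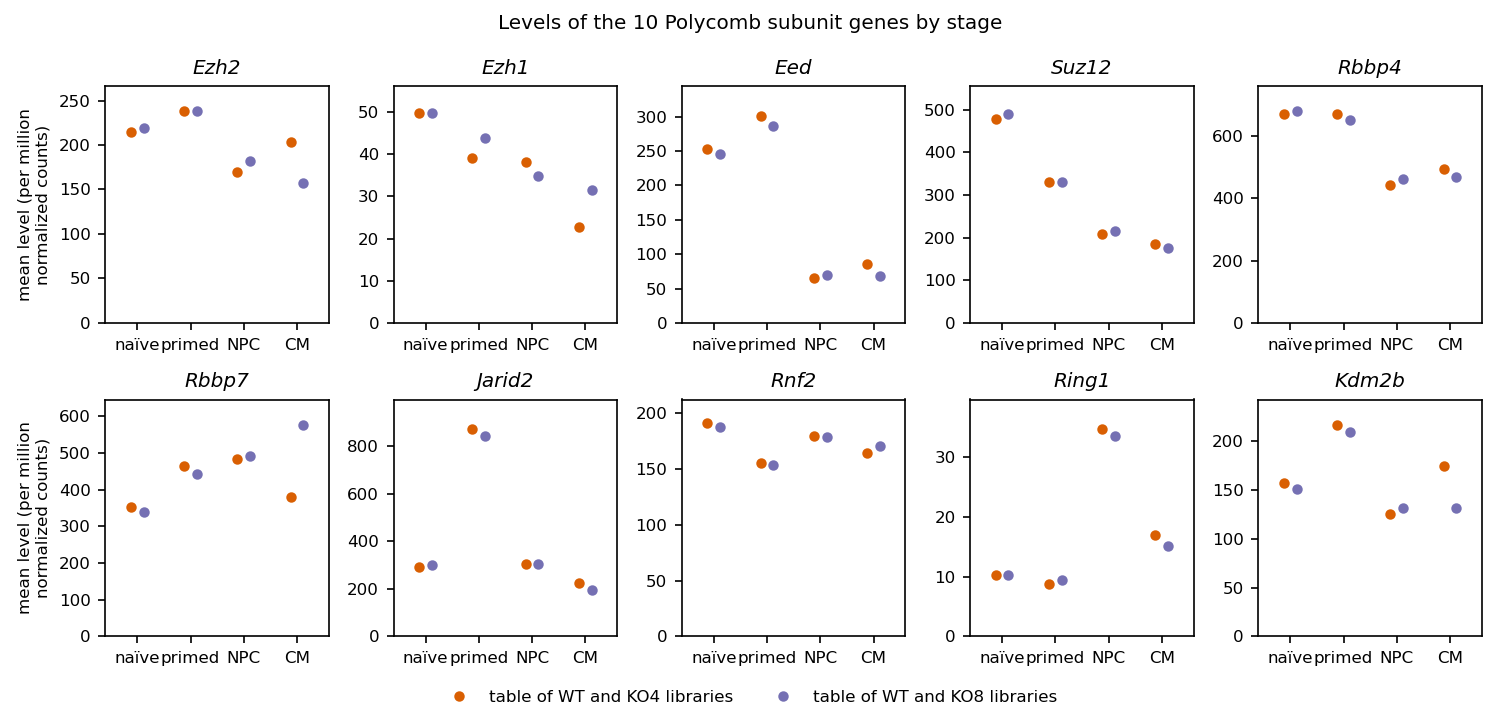
Mean level of each of the 10 genes in CPM (vertical axes, from 0) at the 4 stages, with 1 point for the table of WT and KO4 libraries and 1 for the table of WT and KO8 libraries. Eed stands at 301 and 286 in primed cells and at 65.2 and 69.4 in NPCs, Jarid2 peaks in primed cells, Ring1 peaks in NPCs, and the points of both tables lie apart mainly in CMs.

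Levels can be compared between genes only per length, and were divided by the exon length of the mm9 gene models. In naïve cells the order ran from Rbbp7 (119 CPM per kilobase) over Eed (112), Suz12 (97.7), Rbbp4 (77.2), Rnf2 (62.5), Ezh2 (34.9), Jarid2 (30.5) and Kdm2b (13.0) to Ezh1 (6.68) and Ring1 (3.16). In NPCs Rbbp7 (167) and Rnf2 (59.0) led, followed by Rbbp4 (51.8), Suz12 (42.9), Jarid2 (31.3), Eed (30.4) and Ezh2 (28.4), and Kdm2b (10.9), Ring1 (10.5) and Ezh1 (4.91) came last. Without a spread over libraries, the order of such close neighbours could not be tested. The enzymes were thus unequal at every stage. Ezh2 exceeded Ezh1 per kilobase by 5.23-fold in naïve cells, 6.89-fold in primed cells, 5.78-fold in NPCs and 8.01-fold in CMs. Rnf2 exceeded Ring1 by 19.8-fold and 18.1-fold in naïve and primed cells, by 5.61-fold in NPCs and by 11.2-fold in CMs. Suz12 stood below Eed in naïve and primed cells, at 0.868 and 0.505 of its level, and above it in NPCs, at 1.41 times.

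Stage folds below were taken from the mean of both tables after adding 0.5 to each level, which understates the change of low genes. Counted by a 1.5-fold difference in both tables of a stage, 1 of 10 members was higher in primed than in naïve cells (Jarid2) and 0 were lower, against 15.2% and 16.7% of all 14353 genes compared. From primed cells to NPCs, 4 of 10 were lower (Eed, Suz12, Jarid2 and Kdm2b) and 1 was higher (Ring1), against 21.5% and 44.7% of all genes. From primed cells to CMs, 3 were lower (Eed, Suz12 and Jarid2) and 1 was higher (Ring1), against 19.1% and 36.8%. Between the differentiated stages, 1 member was higher in NPCs than in CMs (Ring1, against 19.2% of genes) and 0 were lower (against 12% of genes). The median gene moved by 0.45 on the log2 scale from primed cells to NPCs and by 0.28 to CMs, while the median member moved by -0.49 and -0.47. Relative to the median gene, 6 members were lower in NPCs, with Ezh2 and Rbbp4 added to those named, and 1 was higher. In CMs 5 were lower and Ring1 no longer reached the 1.5-fold difference in both tables. The share of all genes past this fold was not computed on that scale, so these counts cannot be set against genes in general.

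Of the other genes of the Polycomb system, 38 of 39 listed were in the tables. From primed cells to NPCs, 18 of 38 were higher and 9 of 38 lower by the same rule, against 44.7% and 21.5% of all genes. From primed cells to CMs, 17 of 38 were higher and 10 of 38 lower, against 36.8% and 19.1%. Among the CBX proteins, which read H3K27 methylation for PRC1, Cbx7 was 11.9-fold lower in NPCs and 7.94-fold lower in CMs than in primed cells. Cbx8 was 9.57-fold higher in NPCs, after a low level in primed cells of 0.554 CPM, against 2.27 in naïve cells.

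The polyhomeotic genes, whose products multimerise PRC1, lay in opposite directions. As the mean of both tables, Phc1 went from 320 CPM in naïve cells to 794 in primed cells, 132 in NPCs and 162 in CMs, while Phc2 stood at 24.1 and 27.1 in naïve and primed cells and at 205 and 173 in NPCs and CMs. Of the PCGF subunits that define the forms of PRC1, Bmi1 (PCGF4) was 8.14-fold and 5.56-fold higher in NPCs and CMs than in primed cells, and Pcgf6 was 2.95-fold and 2.81-fold lower. Yaf2 was 8.63-fold and 7.22-fold higher, and L3mbtl2, a partner of PCGF6, 5.19-fold and 3.18-fold lower. Usp7, a deubiquitinase found with PRC1, was 2.78-fold and 2.65-fold lower, and Asxl3, a cofactor of the H2A deubiquitinase BAP1, was 10.3-fold and 4.87-fold higher. Against CMs, NPCs had 2.17-fold more Scmh1 and 3.26-fold less Pcgf5.

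**Figure D2:**
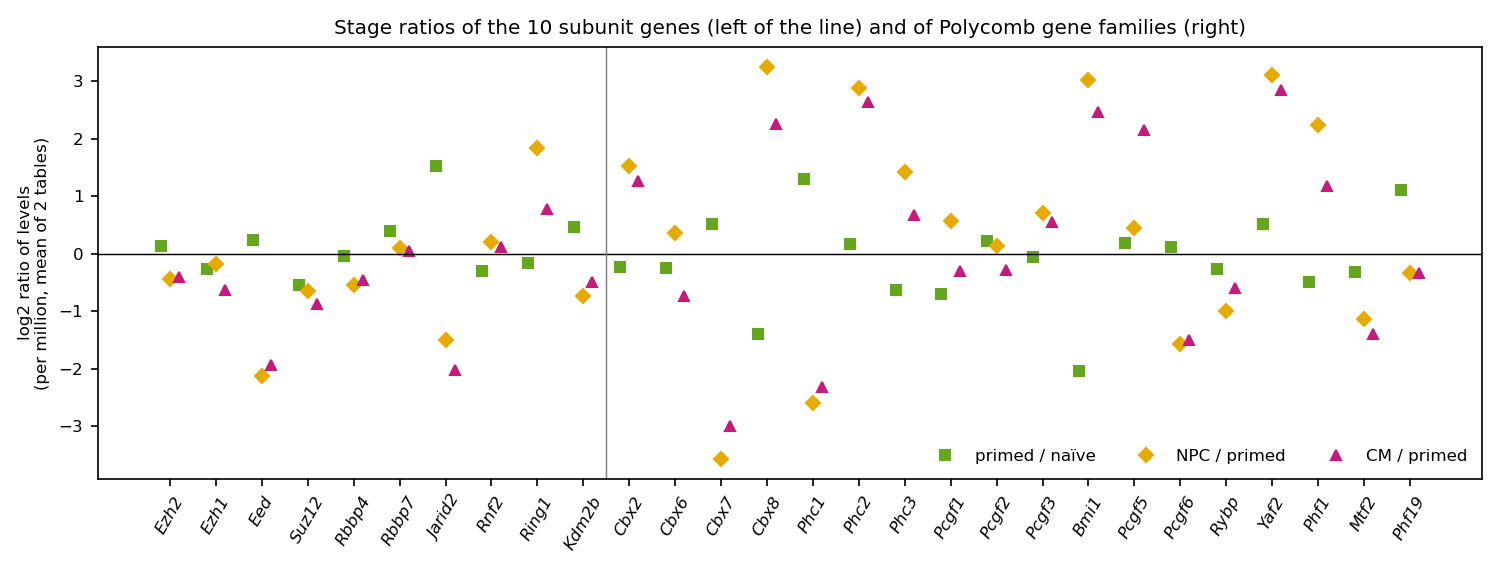
Log2 ratio of levels in CPM (mean of the KO4 and KO8 tables of each stage) for primed over naïve, NPC over primed and CM over primed cells, with the 10 subunit genes left of the vertical line and CBX, PHC, PCGF, RYBP/YAF2 and PRC2 accessory genes right of it. Most subunit genes lie near or below 0 after priming, whereas Cbx8, Phc2, Bmi1 and Yaf2 lie above and Cbx7, Phc1 and Pcgf6 below.

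The tables of both clones share the WT part, so once they are put on the scale of the WT libraries the gap between them holds only the KO libraries, and the ratio of the table means is a lower bound of the fold between KO8 and KO4. The WT libraries fixed this scale to within 0.49% at each stage. In naïve cells, primed cells and NPCs the ratio of the KO8 to the KO4 table lay between 0.911 and 1.11 for all 10 members, and 0 of 10 passed 1.2-fold in either direction. Of all genes, 5.38% were higher and 2.14% lower by 1.2-fold in naïve cells, 3.63% and 2.62% in primed cells, and 8.97% and 3.8% in NPCs. Because the ratio is a lower bound, a value within 1.2-fold does not show that the clones agreed. For Ezh1 in primed cells it was 1.11, while recovered reads gave 1.25-fold (limma adjusted p = 0.0364, with its limits given below).

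In CMs some members passed 1.2-fold. Rbbp7 was at least 1.52 times and Ezh1 at least 1.40 times as high in KO8 as in KO4, whereas Kdm2b, Ezh2 and Eed were at least 1.32, 1.28 and 1.26 times as high in KO4 as in KO8. For Rbbp7 the means were 6850 normalized counts in the KO4 table and 10723 in the KO8 table, and the gap between the clones came to 7142 normalized counts. For Ezh2 the means were 3650 and 2938, and the difference of KO8 minus KO4 was -1588 normalized counts. Jarid2 and Ring1 were at least 1.16 and 1.12 times as high in KO4, and Suz12, Rbbp4 and Rnf2 differed by at most 1.05 between the tables. That 2 of 10 members were higher and 3 lower in KO8 stands beside 20.7% and 16.5% of all genes, so the share of members past 1.2-fold was not far from that of genes in general. No replicate spread could be given for the genes other than Ezh1 and Ring1.

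**Figure D3:**
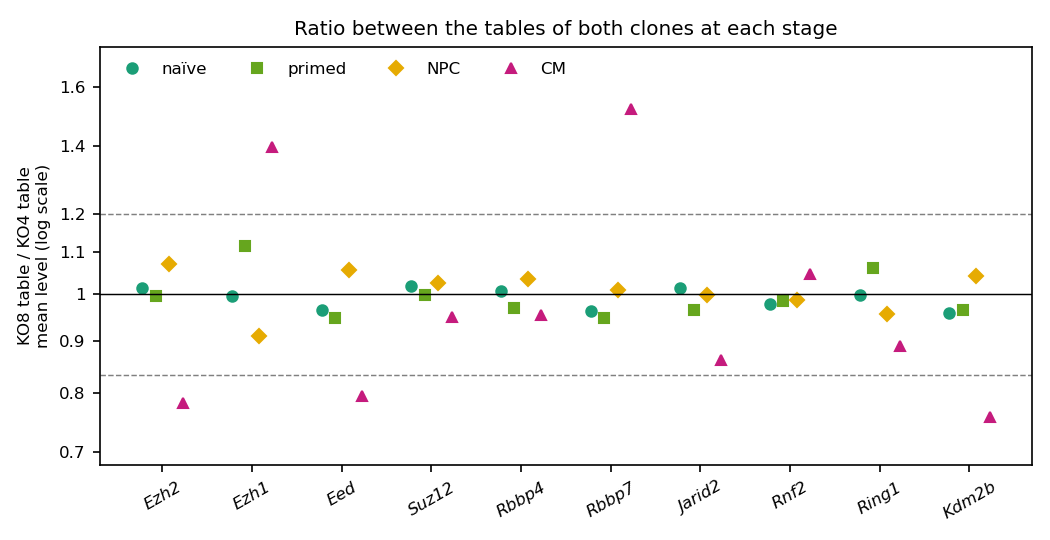
Ratio of the KO8 table mean to the KO4 table mean (log axis) for the 10 genes at the 4 stages, after both tables were set to the scale of the shared WT libraries, with dashed lines at 1.2-fold in either direction. All naïve, primed and NPC points lie between 0.911 and 1.11, and in CMs Rbbp7 (1.52) and Ezh1 (1.40) lie above the upper line and Ezh2, Eed and Kdm2b below the lower one.

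Markers of the cell types also differed between the tables of the clones in CMs. Both tables hold the WT libraries, so the sums below dilute the gap and do not show which clone differs from WT. In the KO4 table the pluripotency genes Pou5f1 and Sox2 summed to 372 CPM against 129 in the KO8 table, the 4 primed markers to 601 against 377, the 6 naïve markers to 162 against 127, and the 6 NPC markers to 537 against 204. In the KO8 table the 6 CM markers summed to 1830 against 1236 in the KO4 table, the 2 fibroblast markers to 1831 against 586, the 4 endoderm markers to 417 against 193, and the 3 endothelial markers to 652 against 416. After scaling to the WT libraries, 6 of 6 CM, 4 of 4 endoderm, 3 of 3 endothelial and 2 of 2 fibroblast markers were higher in the KO8 table, and 2 of 2 pluripotency, 4 of 4 primed, 5 of 6 NPC and 4 of 6 naïve markers were lower. The 8 proliferation genes summed to 2670 CPM in the KO4 table and 2342 in the KO8 table, and 6 of 8 were lower in the latter. None of these markers was listed at 0 in CMs. Their part in the levels of the Polycomb genes was not tested.

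The reads per library allowed a test for Ezh1 and Ring1 (limma on log2 normalized reads over all genes with recovered reads, Benjamini-Hochberg adjustment). In CMs, Ezh1 had 585 and 507 reads in WT, 304 and 258 in KO4 and 685 and 573 in KO8. Both KO4 libraries lay below all others, and KO8 and WT overlapped in reads but not after normalization, with 516 ± 36.8 normalized reads (SD, n = 2) in WT, 296 ± 30.4 in KO4 and 614 ± 38.4 in KO8. Ezh1 was 1.74-fold lower in KO4 than in WT (log2 fold change -0.80 ± 0.11 SE, limma adjusted p = 0.000226). KO8 against WT did not pass (0.25 ± 0.11, limma adjusted p = 0.149, with 10.9% of genes higher and 11.3% lower), and KO8 exceeded KO4 by 2.07-fold (1.05 ± 0.11, limma adjusted p = 3.44e-05). Of the 9199 genes tested in CMs, 54.1% passed for KO4 against WT, 22.2% for KO8 against WT and 52.6% between the clones, so a call in KO4 was common in this stage.

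Ring1 in CMs had 230 and 294 reads in WT, 387 and 308 in KO4 and 343 and 258 in KO8. After normalization the KO4 libraries lay above all others, with 405 and 328, and the KO8 libraries, with 321 and 264, overlapped those of WT, with 213 and 284. The gene was 1.48-fold higher in KO4 than in WT (0.56 ± 0.17, limma adjusted p = 0.0199). This call was lost without WT library A (0.36, limma adjusted p = 0.147), without KO4 library A (0.42, adjusted p = 0.13) and with no minimum of reads (adjusted p = 0.0576). KO8 against WT (0.24 ± 0.17, limma adjusted p = 0.364) and against KO4 (-0.32 ± 0.17, limma adjusted p = 0.147) did not pass.

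In primed cells, Ezh1 had 728 and 839 reads in WT, 617 and 537 in KO4 and 703 and 684 in KO8. Normalized, this gave 735 ± 97.2 (SD, n = 2) in WT, 580 ± 52.7 in KO4 and 727 ± 52.2 in KO8, and only the KO4 libraries lay below all others. KO4 was 1.27-fold lower than WT (-0.34 ± 0.09, limma adjusted p = 0.00596, against 18.8% of 9206 genes called, 9.56% higher and 9.25% lower), but without WT library B the value was -0.20 (limma adjusted p = 0.25) and without KO4 library B -0.24 (adjusted p = 0.111). KO8 against WT did not pass (-0.01 ± 0.09, limma adjusted p = 0.952, with 14.3% of genes called, 8.17% higher and 6.08% lower). KO8 against KO4 passed with 0.33 ± 0.09 (limma adjusted p = 0.0364, with 2.72% of genes called, 1.76% higher and 0.956% lower), and did not pass without KO4 library B (0.23, limma adjusted p = 0.303), KO8 library A (0.40, 0.0723) or KO8 library B (0.26, 0.371), nor with no minimum of reads (0.33, 0.347). Ring1 had 196 and 163 reads in WT, 117 and 139 in KO4 and 156 and 125 in KO8, and passed in none of the 3 comparisons (KO4 against WT -0.38 ± 0.16, limma adjusted p = 0.101).

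In NPCs neither gene passed in any of the 3 limma comparisons. Ezh1 had 726 and 538 reads in WT, 685 and 627 in KO4 and 562 and 606 in KO8, and both KO groups overlapped WT. Its log2 fold changes against WT were 0.09 ± 0.12 in KO4 and -0.20 ± 0.12 in KO8 (limma adjusted p = 0.775 and 0.364). Ring1 had 578 and 527 reads in WT, 626 and 612 in KO4 and 629 and 599 in KO8. After normalization both KO groups lay above WT, which had 558 and 561. Its log2 fold changes were 0.18 ± 0.10 and 0.05 ± 0.10 (limma adjusted p = 0.355 and 0.792). Of 9573 genes, 7.69% passed for KO4 against WT (4.79% higher, 2.89% lower), 11.7% for KO8 against WT (7.54% higher, 4.16% lower) and 1.26% for KO8 against KO4 (0.783% higher, 0.481% lower). At an unadjusted p under 0.05 neither gene passed against WT and 1 of the 2 passed between the clones, with no share of all genes computed at that level.

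**Figure D4:**
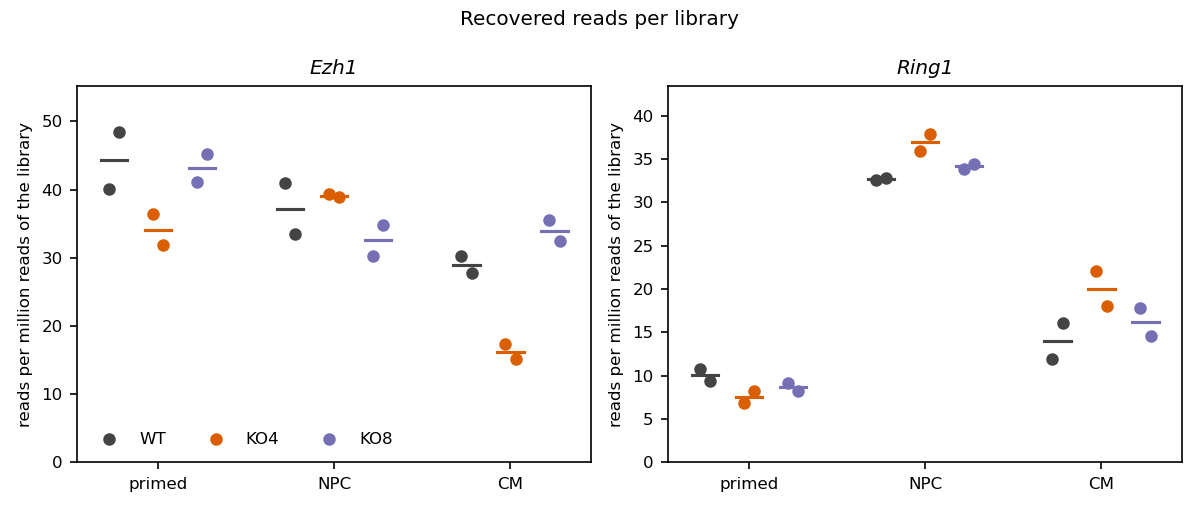
Reads of Ezh1 and Ring1 per 1000000 reads of the estimated depth of the library (RPM), in primed cells, NPCs and CMs. There is 1 point per library, with lines at the mean of the 2 libraries, and WT, KO4 and KO8 in separate colours. The estimated depth follows the normalization and is not a count of all reads of the library. The KO4 libraries of CMs have 17.4 and 15.1 RPM of Ezh1 against 30.2 and 27.7 in WT, and Ring1 is highest in NPCs in all groups.

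Other Polycomb genes with recovered reads were tested in the same fits. In CMs, for KO4 against WT, 4 of 14 were higher (Cbx7, Phf19, Pcgf1 and Pcgf6) and 5 were lower (Phf1, Scmh1, Phc3, Lcor and Bmi1), against 25.5% and 28.6% of all genes tested. Of these calls, those of Phf19, Pcgf1 and Lcor held under 7, 7 and 6 of 9 alternatives, and the other 6 under 9 of 9. For KO8 against WT in CMs, 0 of 14 passed with limma, against 22.2% of genes tested. At an unadjusted p under 0.05 there were 4 of 14, and the share of all genes at that level was not computed. The difference between the clones itself passed for 7 of 14, 3 higher and 4 lower in KO8, against 28.1% and 24.5% of all genes tested. The median log2 fold change of the 14 was 0.22 in KO4 and -0.07 in KO8, against -0.01 and 0.00 over all genes tested.

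Cbx7, which is the main CBX gene of ESCs, had 425 and 385 reads in WT CMs, 811 and 751 in KO4 and 395 and 321 in KO8. It was 2.15-fold higher in KO4 than in WT (1.104 ± 0.10, limma adjusted p = 1.33e-05). Pcgf6, a subunit of the ESC-enriched PRC1.6, had 719 and 609 reads in WT, 1113 and 1065 in KO4 and 682 and 662 in KO8, and was 1.83-fold higher in KO4 (0.87 ± 0.09, limma adjusted p = 2.03e-05). In both cases the KO4 libraries lay above all others, and KO8 against WT did not pass (limma adjusted p = 0.388 and 0.618).

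The Polycomb-like genes Phf19 and Phf1, alternative accessory subunits of PRC2, went in opposite directions. Phf19 had 103 and 139 reads in WT CMs, 292 and 175 in KO4 and 83 and 97 in KO8, and Phf1 had 345 and 293 in WT, 152 and 183 in KO4 and 379 and 335 in KO8. Against WT, Phf19 was 2.10-fold higher (1.07 ± 0.27, limma adjusted p = 0.0072) and Phf1 1.71-fold lower (-0.77 ± 0.14, limma adjusted p = 0.0013) in KO4. Both KO4 libraries of Phf19 lay above all others, and its call held under 7 of 9 alternatives, with log2 fold changes from 0.72 to 1.43. Genes for which only the table means were available gave bounds between the clones. Pcgf5, Bcor and Rybp were at least 1.57, 1.30 and 1.22 times as high in KO8, and Phc1 and Cbx2 at least 1.38 and 1.24 times as high in KO4.

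**Figure D5:**
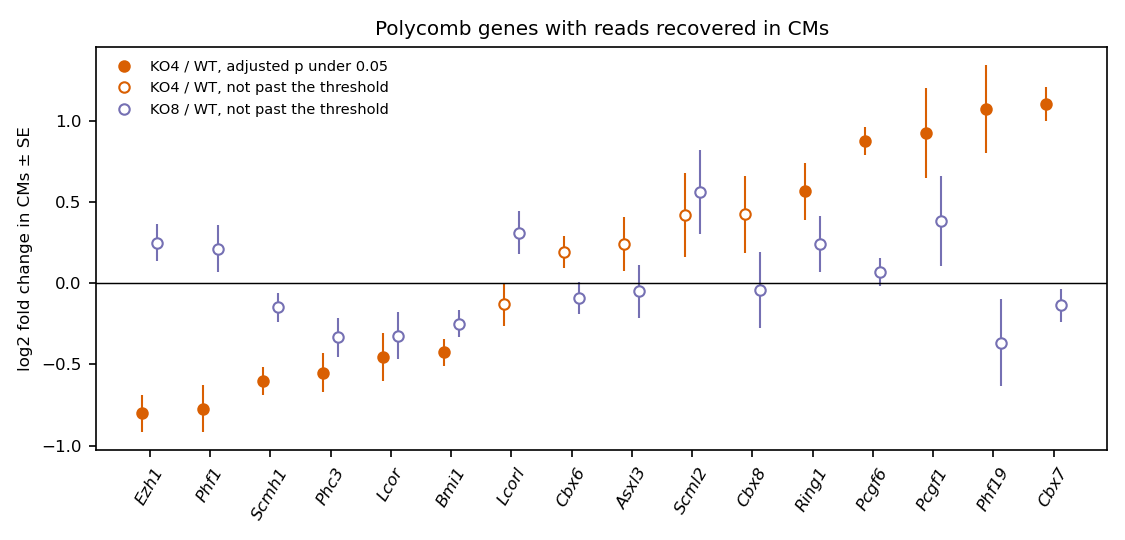
Log2 fold change in CMs with its standard error (limma) of KO4 against WT and KO8 against WT for the 16 Polycomb genes with recovered reads, ordered by the KO4 value, with filled points where the adjusted p passed 0.05. The KO4 values run from Ezh1 (-0.80) to Cbx7 (1.104) with 11 filled points, and the KO8 values are all open, from -0.37 to 0.56.

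In primed cells, Bmi1 had 115 and 112 reads in WT, 129 and 119 in KO4 and 186 and 190 in KO8, and was 1.85-fold higher in KO8 than in WT (0.89 ± 0.17, limma adjusted p = 0.000174), with both KO8 libraries above all others. Asxl3 was higher (1.04, limma adjusted p = 0.0038) and Pcgf5 lower (-0.45, adjusted p = 0.0254) in KO4 than in WT, and Fbrs was lower in KO8 (-0.27, adjusted p = 0.0363). Thus 2 of 17 passed in each clone, against 18.8% of all genes tested in KO4 and 14.3% in KO8. The calls of Bmi1, Asxl3, Pcgf5 and Fbrs held under 9, 8, 5 and 5 of 9 alternatives. In NPCs Asxl3 (-0.40, limma adjusted p = 0.0396) and Scml2 (-0.85, adjusted p = 0.0309) were lower in KO8 than in WT and held under 3 and 5 of 9. Thus 2 of 13 passed, against 11.7% of all genes tested. For KO4 against WT in NPCs, 0 of 13 passed with limma, against 7.69% of all genes tested. At an unadjusted p under 0.05 there were 0 of 13, with no share of all genes computed at that level.

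Genes with patterns like those of the EZH paralogues were sought over the 8 tables by Pearson's r of log2 levels among 8921 genes with a mean of at least 100 normalized counts in every table. The tables of a stage share WT libraries and the values are a description. The genes most like Ezh2 were Hira (r = 0.987), Irf1 (0.979), Trim59 (0.979), 0610010K14Rik (0.978) and Dnph1 (0.974). Those most like Ezh1 were Polh (0.988), Ech1 (0.979), Pcolce (0.976), Ppp3r1 (0.975) and Gk5 (0.965). The 2 lists had no gene in common. Each list held only the genes nearest to its paralogue, and Ezh2 was highest in primed cells but Ezh1 in naïve cells. A shared gene was therefore hardly possible, and no conclusion is drawn from its absence.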

How the data were processed

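Per the labels, total RNA of 27 samples was used. The authors trimmed reads (Trim Galore 0.6.7), aligned them to mm9 (HISAT2 2.2), counted them per gene (featureCounts) and normalized the counts with DESeq2 1.46.0. The 8 deposited tables give a mean of normalized counts per gene (a signal averaged over libraries, in no fixed unit), and log2 fold changes, standard errors, Wald statistics and p-values of the authors' comparisons, none of which were used. From the deposited means, the step of 1 read per library was read from genes with 1 read, libraries present in both tables of a stage were taken as WT, and whole reads were solved for means up to 1000 within 0.65 of the last digit. These reads are estimates solved from means, and libraries of a group were searched within 5 SD of each other. Genes with no solution and means up to 700 were searched again within 10 SD, which gave 4 genes in primed cells, 124 in NPCs and 37 in CMs. Libraries further apart than these windows were not searched, which limits the spread that the tests could see. Tests used limma 3.58.1 in R 4.3.3 (trend, log2 of reads divided by median-of-ratios size factors plus 0.5, genes with a mean of at least 10 reads, all 3 groups of a stage in 1 fit, Benjamini-Hochberg adjusted p under 0.05). The procedure was run on reads simulated from the means of genes recovered in CMs, with less spread between replicates than the search allowed. It therefore did not test the recovery of genes whose replicates lie further apart. Alternatives were total counts as library size, no minimum of reads, a pseudocount of 1, each library left out in turn, other scalings of the tables, and folds of 1.1 and 1.5 between clones. Clones were compared on the WT scale, and this scaling and the fold of 1.5 between stages were chosen after seeing the data. Members, gene lists and tests were chosen with earlier results of these data known. Named genes were the 10 members, the 5 highest and 5 lowest other Polycomb genes of a comparison, and the 5 genes most like Ezh2 and Ezh1; other genes of the Cbx, Phc and Pcgf families and those in counts of 5 or fewer were named after their values were seen. Gene models were GENCODE M1 (mm9), promoters RefSeq (GRCm38.p6), with all 10 members matched in both. 1 gene of the list of other Polycomb genes is not reported here.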

Additional observations from a re-analysis of the deposited data

Results flagged for a closer look

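The clones differed from each other, by the limma test of KO8 against KO4, for the following Polycomb genes. In CMs, Ezh1 was higher in KO8 by 1.05 on the log2 scale (adjusted p = 3.44e-05), which held under 9 of 9 alternatives, and in primed cells by 0.33 (adjusted p = 0.0364), which held under 5 of 9. Bmi1 was higher in KO8 primed cells by 0.66 (adjusted p = 0.0195) and held under 4 of 9. In CMs, Phf1 (0.98, adjusted p = 0.000273) and Scmh1 (0.45, adjusted p = 0.00164) were higher in KO8 under 9 of 9 alternatives, and Lcorl (0.44, adjusted p = 0.0183) under 7 of 9. Cbx7 (-1.24, adjusted p = 5.40e-06), Phf19 (-1.44, adjusted p = 0.00138) and Pcgf6 (-0.81, adjusted p = 3.37e-05) were lower in KO8 CMs under 9 of 9, and Cbx6 (-0.28, adjusted p = 0.0348) under 4 of 9. The part of the cell type markers, which also differed between the tables of the clones in CMs, was not tested.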

How the results depend on the processing

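No paired analysis was possible because the recovered libraries carry no replicate number of the labels. With no minimum of reads, log2 fold changes of -0.34 for Ezh1 in KO4 against WT in primed cells, 0.33 for Ezh1 in KO8 against KO4 in primed cells and 0.56 for Ring1 in KO4 against WT in CMs no longer passed (limma adjusted p = 0.115, 0.347 and 0.0576), and 893, 555 and 31 genes passed in primed cells (KO4 against WT, KO8 against WT, KO8 against KO4) and 43 in NPCs (KO8 against KO4), in place of 1732, 1312, 250 and 121, with more genes tested. Requiring also a log2 fold change of at least 0.5, an alternative chosen after seeing the data, left 921, 681 and 148 in primed cells. Leaving out each library in turn gave -0.48 to -0.20 for Ezh1 in KO4 against WT in primed cells, 0.23 to 0.42 for Ezh1 in KO8 against KO4 in primed cells and 0.36 to 0.77 for Ring1 in KO4 against WT in CMs. The genes that passed then numbered 989 to 1726, 686 to 1420 and 99 to 232 in primed cells (same order), 2 to 1743, 111 to 2185 and 6 to 1445 in NPCs (736, 1120 and 121 with all libraries, lowest without WT library B, WT library A and KO4 library A, highest without KO8 library B, KO8 library A and KO8 library A), and 824 to 2166 for KO8 against WT in CMs. A lone library was assumed to vary like the other groups. The calls of Ezh1 in CMs held under all 9 alternatives, with -0.90 to -0.69 for KO4 against WT. Scaled by the median ratio of genes, 1 member was higher and 6 lower in NPCs than in primed cells, and 0 were higher and 5 lower in CMs. The share of all genes was not computed on that scale. Members past 1.1-fold between the clones were 1 higher in primed cells and 5 lower in CMs, and past 1.5-fold 1 higher and 0 lower in CMs. The share of all genes past these 2 folds was not computed, so these counts cannot be set against genes in general. As deposited, the means of the 10 members summed to 96241, 55474, 35510 and 36082 in naïve cells, primed cells, NPCs and CMs, which moves with depth. No call changed sign under an alternative, but 45 tested log2 fold changes did, none of which passed as reported or under that alternative. For Ezh1, leaving out each library gave -0.15 to 0.12 in KO8 against WT in primed cells and -0.053 to 0.24 in KO4 against WT in NPCs. The other Polycomb genes whose log2 fold change crossed 0 in the same way gave these ranges. KO4 against WT in primed cells gave -0.053 to 0.32 for Lcorl, -0.14 to 0.16 for Phc3, -0.17 to 0.22 for Phf1 and -0.12 to 0.018 for Auts2. KO8 against WT in primed cells gave -0.12 to 0.14 for Bcorl1, -0.16 to 0.12 for Pcgf5, -0.040 to 0.26 for Scmh1, -0.14 to 0.19 for E2f6, -0.10 to 0.27 for Lcorl, -0.19 to 0.0067 for Auts2, -0.20 to 0.12 for Phf19 and -0.27 to 0.49 for Scml2. KO8 against KO4 in primed cells gave -0.14 to 0.063 for Auts2, -0.032 to 0.085 for Cbx2, -0.15 to 0.039 for Fbrs, -0.21 to 0.11 for Lcorl, -0.057 to 0.15 for Phc2, -0.0017 to 0.36 for Phf19, -0.078 to 0.16 for Yaf2, -0.17 to 0.22 for Phf1, -0.29 to 0.037 for E2f6, -0.55 to 0.21 for Scml2 and -0.024 to 0.23 for Bcorl1. KO4 against WT in NPCs gave -0.17 to 0.34 for Cbx7, -0.24 to 0.18 for Lcorl, -0.0058 to 0.14 for Pcgf6, -0.083 to 0.015 for Pcgf5 and -0.032 to 0.075 for Cbx8. KO8 against WT in NPCs gave -0.40 to 0.017 for Lcorl, -0.20 to 0.019 for Phf19, -0.015 to 0.90 for Cbx7 and -0.17 to 0.66 for Pcgf5. KO8 against KO4 in NPCs gave -0.17 to 0.026 for Pcgf1, -0.34 to 0.020 for Lcorl, -0.093 to 0.82 for Cbx7 and -0.14 to 0.69 for Pcgf5. KO4 against WT in CMs gave -0.25 to 0.0089 for Lcorl. KO8 against WT in CMs gave -0.23 to 0.13 for Asxl3, -0.22 to 0.039 for Cbx6, -0.020 to 0.16 for Pcgf6 and -0.25 to 0.17 for Cbx8. KO8 against KO4 in CMs gave -0.10 to 0.39 for Scml2 and -0.0086 to 0.28 for Lcor. With total counts as the library size, KO4 against WT in primed cells gave -0.0049 for Phc3 and KO8 against WT gave -0.0057 for Bcorl1. With another scaling, 11 untested ratios of members changed sign, each under 1.2-fold in size as reported and as rescaled. Under the median ratio of genes, Rbbp7 and Rnf2 went from 0.10 and 0.21 to -0.19 and -0.085 from primed cells to NPCs, and from 0.047 and 0.12 to -0.11 and -0.044 from primed cells to CMs. Reads were searched for only at means up to 1000 and at the stages with 2 libraries per group, so 8 members have no spread over libraries at any stage, and none of the 10 has one in naïve cells.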
